A study of Mus musculus with 2 samples.

Results

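The 10 genes described here encode 7 chemokines (Cxcl9, Cxcl10, Cxcl12, Cxcl16, Cxcl1, Ccl2 and Ccl5) and 3 atypical chemokine receptors (Ackr1, Ackr3 and Ackr4). They were chosen by symbol from the 32285 genes counted by single-cell RNA sequencing of hepatic endothelial cells of mice, and all 10 had UMIs (unique molecular identifiers, 1 per captured RNA molecule) in both libraries. The study compared liver sinusoidal endothelial cells (LSECs) of control and Maf LSEC-KO mice. The latter carried Clec4g-iCre tg/wt and Maf fl/fl, so that Cre, driven by the promoter of the LSEC gene Clec4g, removes Maf, a transcription factor of the basic leucine zipper family. The control library, labelled WT, came from littermates without the transgene (Clec4g-iCre wt/wt) that carried Maf fl/fl or Maf fl/wt, so floxed Maf alleles were present in both groups, and carrying Cre and lacking Maf cannot be told apart. Cells of 3 mice were pooled into 1 library per group after collagenase perfusion, density gradient and selection with anti-CD146 beads. Female and male mice of 3 and 6 months served the study as a whole; the age and sex of the pooled mice are not given in the sources used here. With 1 library per group no difference has a replicate check: every interval below is a 95% interval for counting error only, and no test was made.

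Chemokines are small secreted proteins that direct leukocytes through G protein-coupled receptors and are held on endothelial surfaces by heparan sulfate. Atypical chemokine receptors bind chemokines without classical G protein signalling and take them up, carry them across the cell or present them. LSECs line the hepatic sinusoids, where most leukocytes enter the liver, and differ in gene expression between the periportal and the pericentral end of the lobule.

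The control library held 5664 barcodes and 47681895 UMIs, and the Maf LSEC-KO library 7091 barcodes and 89872764 UMIs. After filters, 4141 control LSECs with a median of 8395 UMIs and 3252 Maf LSEC-KO LSECs with a median of 13870.5 UMIs were kept, so shares of cells with a UMI are also given with each cell thinned to 2700 UMIs. The libraries shared 10 barcode sequences, 4 of them among LSECs. LSECs were cells of clusters with Pecam1 and further endothelial genes and without a Vwf UMI, a filter the study used against endothelial cells of larger vessels. It left out 161 of 4302 control and 1182 of 4434 Maf LSEC-KO endothelial-like cells. Vwf RNA was spread over more endothelial-like clusters in Maf LSEC-KO than in control, as given below with Ackr3. The filter thus selects cells differently in each library, and ratios of the 10 genes were also computed with Vwf-positive cells kept. Levels are given in CPM, UMIs scaled to the same total in every group of cells, with mitochondrial genes and genes of ribosomal proteins kept out of the total. They count transcript 3′ ends and are not set per length, so they are compared between cells and not between genes. The targeted gene Maf stood at 3439 CPM in control and 124.7 CPM in Maf LSEC-KO LSECs (log2 ratio −4.79). The LSEC genes Clec4g and Stab2 stood at 2988 and 1621 CPM in control and at 1509 and 178 CPM in Maf LSEC-KO LSECs. LSECs of the libraries also differed in RNA of other cell types: the summed level of the erythroid list was 1239 CPM in control and 14.4 CPM in Maf LSEC-KO, that of the hepatocyte list 220.0 and 93.5 CPM, that of the macrophage list 65.4 and 114 CPM, and that of the stellate cell list 275 and 218 CPM. Their part in the results below was not tested, except where a value is given. Cluster 8 of the Maf LSEC-KO library was kept as endothelial-like for its endothelial genes, but its leading genes (Dcn, Ccl21a, Acta2, Col3a1, Mmrn1) are largely stellate and lymphatic ones, and 86 of its cells are among the LSECs. Ratios of the 10 genes between the libraries that it carries are also given without it, while the bins of cells and the split by Maf UMIs include it.

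In LSECs, the 3 atypical receptors were lower in the Maf LSEC-KO library than in the control library, Ackr4 the most, while the chemokines went in both directions. Of the 10 genes, 1 stood 2-fold or more higher (Cxcl1) and 4 stood 2-fold or more lower (Ackr4, Ackr3, Ackr1 and Ccl5). Among all 11159 genes with a mean of at least 2.5 CPM, 11.3% were 2-fold or more higher and 4.97% were 2-fold or more lower. The median log2 ratio was 0.00 over the 10 genes and 0.13 over all genes tested. The lower count includes Ccl5, whose direction turned with the clustering, as described below.

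**Figure D1:**
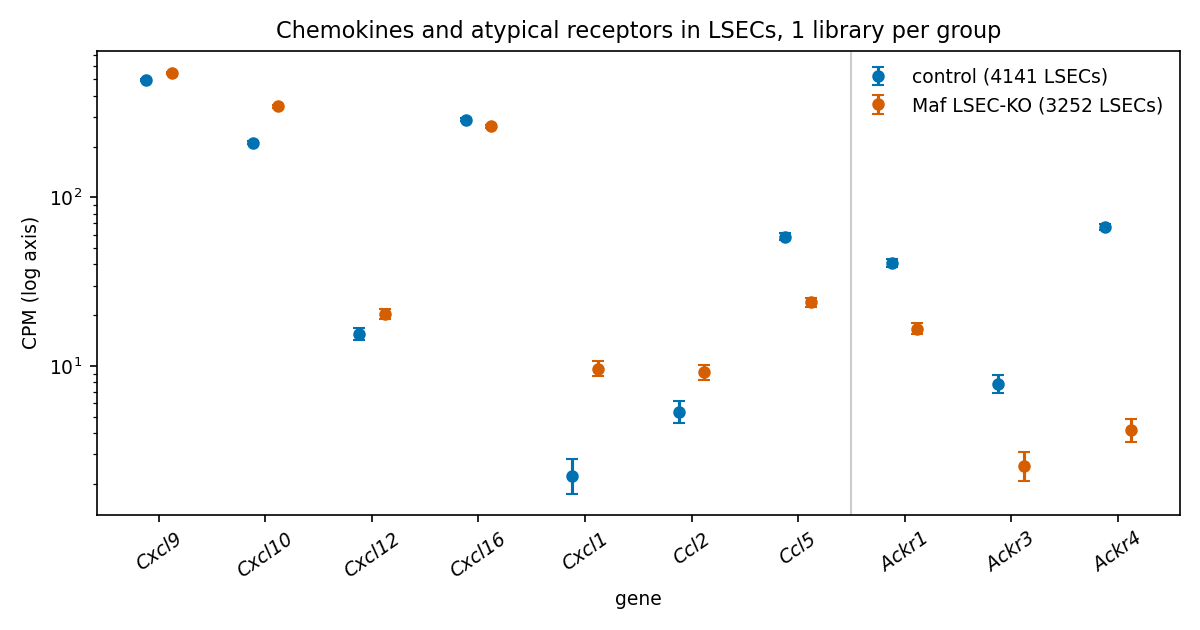
Level of each gene in LSECs of the control (blue) and Maf LSEC-KO (orange) library, in CPM on a log axis, with 95% Poisson intervals and 1 library per group. Ackr4 shows the widest gap, 66.3 CPM in control against 4.16 CPM in Maf LSEC-KO, and Cxcl16 and Cxcl9 the narrowest.

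Ackr4 (ENSMUSG00000079355, GRCm38 chr9:104084157-104126933, minus strand), which takes up and degrades CCL19, CCL21 and CCL25, reached 66.3 CPM (63.6 to 69.1) in the control library from 2202 UMIs. In Maf LSEC-KO it reached 4.16 CPM (3.55 to 4.84) from 167 UMIs. The level was far lower in Maf LSEC-KO, at a log2 ratio of −4.00 (−4.23 to −3.77), and 22 of the 11159 genes tested had a ratio this low or lower. An Ackr4 UMI was found in 29.8% of control LSECs and 3.04% of Maf LSEC-KO LSECs (12.8% and 1.21% at 2700 UMIs per cell). T and NK cell-like cells, which should lack it, had one in 1 of 29 control cells (3.45%, median 6892 UMIs) and in 0 of 60 Maf LSEC-KO cells (median 5836.5 UMIs), which allows a share of up to 5%. The share over all Maf LSEC-KO LSECs therefore did not exceed what that many cells can show as background. It was uneven, at 26.8% in the LSECs with at least 5 Maf UMIs described below and 1.25% in those with 0. Control B cell-like cells, which held much LSEC RNA, had an Ackr4 UMI in 9 of 47 (19.1%, median 7540 UMIs), so part of the control share can be background too, and Maf LSEC-KO B cell-like cells in 0 of 39. Acad11, which lies on the opposite strand across Ackr4, had 17.0 CPM in control and 16.1 CPM in Maf LSEC-KO LSECs.

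Ackr1 (ENSMUSG00000037872, chr1:173331886-173333750, minus strand), which binds inflammatory chemokines of both main classes and carries them across venular endothelium, reached 40.7 CPM (38.6 to 43.0) in the control library from 1353 UMIs. In Maf LSEC-KO it reached 16.6 CPM (15.4 to 17.9) from 668 UMIs, a log2 ratio of −1.29 (−1.43 to −1.16). The control library was the higher one, and the share of LSECs with an Ackr1 UMI was 19.0% there and 13.5% in Maf LSEC-KO, or 7.72% and 3.82% at 2700 UMIs per cell, against 3.45% of control T and NK cell-like and 10.6% of control B cell-like cells. Ackr1 overlaps Cadm3 on the same strand, and Cadm3 stood at 9.12 and 3.58 CPM, so reads in the shared stretch could belong to either.

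Ackr3 (ENSMUSG00000044337, chr1:90203980-90216751, plus strand), the scavenger receptor of CXCL12, was sparse in LSECs. It reached 7.80 CPM (6.88 to 8.81) in the control library (259 UMIs) against 2.54 CPM (2.07 to 3.08) in Maf LSEC-KO (102 UMIs), which is −1.62 (−1.96 to −1.28) as a log2 ratio. Control LSECs were the higher group, but the ratio shrank to −0.60 with cells thinned to 2700 UMIs and to −0.85 with Vwf-positive cells kept. An Ackr3 UMI was found in 4.56% of control and 1.75% of Maf LSEC-KO LSECs, or 1.29% and 0.62% at 2700 UMIs per cell, against 0 of 29 and 0 of 60 T and NK cell-like and 4.26% of control B cell-like cells (2 of 47). The shares over all LSECs are thus not set apart from background. They were uneven in control LSECs, at 0.29% in the least and 12.6% in the most pericentral of the bins described below. Cluster 8 held 57.8% of the Maf LSEC-KO LSEC UMIs of Ackr3, and without it the log2 ratio was −2.84. Ackr3 stood at 83.4 CPM in finer cluster 16, the endothelial part of cluster 8, and at 70.7 CPM in finer cluster 20. Ackr3 was higher in Vwf-positive endothelial cells than in LSECs of the same library: 55.02 CPM (44.5 to 67.3) in 161 control cells and 12.7 CPM (11.1 to 14.5) in 1182 Maf LSEC-KO cells. The Vwf-positive cells held 26.1% of the control and 68.1% of the Maf LSEC-KO Ackr3 UMIs, and within them the log2 ratio was −2.11 (−2.46 to −1.75). The class holds different cells in each library: at the finer clustering Vwf RNA in control was at 144 and 381 CPM in clusters 8 and 11 and at most 4.51 CPM in the other clusters, while in Maf LSEC-KO it was between 12.7 and 225 CPM in clusters 1 to 7. Of the genes tested in Vwf-positive cells, 5.22% were 2-fold or more lower and 9.08% were 2-fold or more higher. In the Maf LSEC-KO library Ackr3 stood at 86.7 CPM in cluster 7, led by Rspo3, Bmp4 and Selp, and at 80.4 CPM in cluster 8, led by Dcn and Ccl21a, while the other endothelial-like clusters lay between 0.84 and 6.23 CPM.

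The receptors differed along the lobule in control LSECs. LSECs were ranked by the share of pericentral genes (Wnt2, Wnt9b, Rspo3, Cdh13, Kit and Thbd) among the UMIs of pericentral and periportal genes (Efnb2, Dll4, Ntn4, Ltbp4, Adgrg6 and Msr1) and cut into 4 equal bins of 1019 control and 793 or 794 Maf LSEC-KO cells. From the least to the most pericentral bin, control Ackr4 stood at 26.2, 43.1, 75.3 and 117 CPM. Control Ackr3 stood at 0.61, 1.75, 5.38 and 24.0 CPM in the same order. Control Ackr1 went the other way, at 60.4, 53.4, 33.4 and 18.5 CPM. The log2 ratio of the most to the least pericentral bin was 2.16 (1.93 to 2.41) for Ackr4, 5.30 (3.92 to 7.19) for Ackr3, which had 4 UMIs in the lowest bin, and −1.71 (−1.99 to −1.43) for Ackr1. Within 0.02 of a limit between bins lay 458 control cells, and 65 control and 77 Maf LSEC-KO LSECs had no UMI of either list.

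In Maf LSEC-KO LSECs Ackr4 and Ackr3 were again highest in the most pericentral bin, where both were lower than in control. Ackr4 stood at 1.54, 2.35, 1.94 and 10.2 CPM from the least to the most pericentral bin, and Ackr3 at 0.98, 0.43, 1.70 and 6.54 CPM. Of the 102 Ackr3 UMIs of Maf LSEC-KO LSECs, 69 were in the most pericentral bin and 59 were in cluster 8. The bins were not recomputed without that cluster. The remaining Maf RNA of Maf LSEC-KO LSECs was also highest in the most pericentral bin, at 108, 108, 76.2 and 208 CPM. Ackr1 was at 19.0, 18.4, 18.0 and 11.8 CPM, a narrower range than in control LSECs. Ackr4 was lower than in the control library in each of the 4 bins. The bins were cut within each library, and 1843 Maf LSEC-KO cells lay within 0.02 of a limit, so bins of the same number need not be the same position in the lobule. The lowest limit in Maf LSEC-KO was a score of 0, and cells tied at 0 are not ranked among themselves. Depth differed too, with medians of 10501.5, 13542, 18105.5 and 14864 UMIs from the least to the most pericentral Maf LSEC-KO bin.

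**Figure D2:**
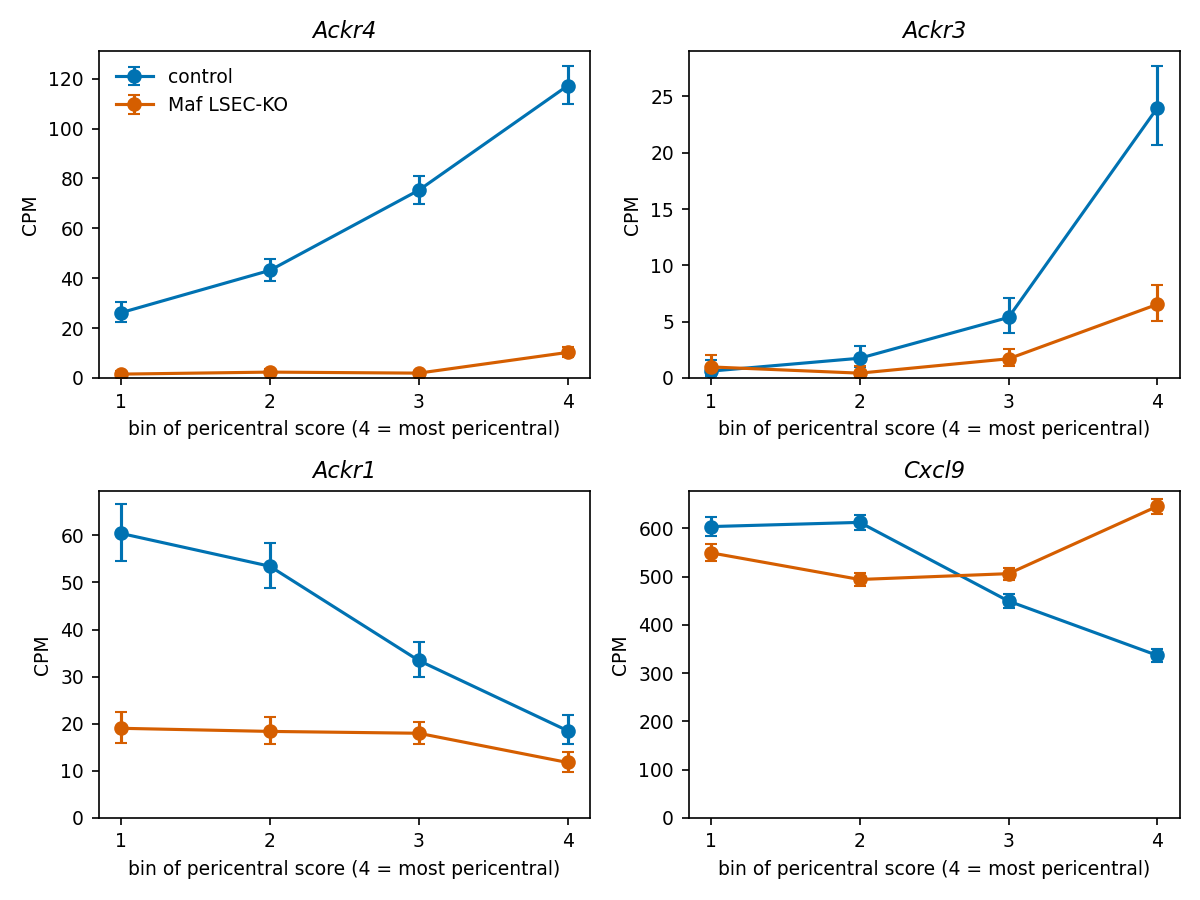
Level of Ackr4, Ackr3, Ackr1 and Cxcl9 in bins of LSECs ranked by pericentral score in the control (blue) and Maf LSEC-KO (orange) library, in CPM with 95% Poisson intervals. In control LSECs Ackr4 and Ackr3 are highest in the most pericentral bin and Ackr1 in the least, and Cxcl9 falls from 604 to 337 CPM in control but is at 646 CPM in the top bin of Maf LSEC-KO.

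Some cells of the Maf LSEC-KO library still held Maf RNA, which allowed the genes to be read within 1 library. Of 3252 Maf LSEC-KO LSECs, 2557 had 0 Maf UMIs, 349 had at least 2 and 213 had at least 5. The macrophage-like clusters of this library also held Maf, at 1700 and 908 CPM at the finer clustering. At least 3 macrophage genes were found in 262 of the LSECs. What macrophage RNA adds to the Maf UMIs of LSECs was not tested. Ackr4 stood at 1.12 CPM (0.77 to 1.56) in the cells with 0 Maf UMIs, at 28.5 CPM (23.8 to 34.0) in those with at least 2 and at 52.6 CPM (43.6 to 63.0) in those with at least 5. The log2 ratio of cells with at least 2 over cells with 0 Maf UMIs was 4.67 (4.12 to 5.26). Of the 126 Ackr4 UMIs of the former 119 were in cells with at least 5, and cells with 1 to 4 Maf UMIs stood at 1.86 CPM (1.01 to 3.11), near those with 0. Cells with at least 5 were near the control level, at a log2 ratio of −0.33 (−0.61 to −0.07) to control LSECs. Of the 99 Maf LSEC-KO LSECs with an Ackr4 UMI, 57 (57.6%) had at least 5 Maf UMIs, against 4.95% of the LSECs without one, and of the 35 with at least 2 Ackr4 UMIs, 32 had at least 5 Maf UMIs. Of the 213 LSECs with at least 5 Maf UMIs, 169 were in cluster 6, which held Ackr4 at 73.5 CPM, and the other endothelial-like clusters of the library lay between 0.42 and 7.95 CPM. Among all 11327 genes tested in this split, 5.51% differed 2-fold or more, 4.27% higher and 1.24% lower in the cells with at least 2 Maf UMIs.

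Ackr3 and Ackr1 were also higher in the Maf LSEC-KO LSECs with at least 2 Maf UMIs. Ackr3 stood at 1.78 CPM with 0 Maf UMIs, 9.74 CPM with at least 2 and 14.1 CPM with at least 5, a log2 ratio of 2.45 (1.84 to 3.06) for at least 2 over 0. Ackr1 stood at 15.4, 27.6 and 32.7 CPM in the same order, a log2 ratio of 0.84 (0.54 to 1.13). Cells with 1 Maf UMI were no higher than those with 0, at 0.93 CPM for Ackr3 and 14.3 CPM for Ackr1. Ackr3 did not follow Maf in every cluster. At the finer clustering, Maf LSEC-KO cluster 9 (212 cells) had Maf at 2319 and Ackr3 at 2.27 CPM, and cluster 20, led by Dcn and Ccl21a, 306 and 70.7 CPM. Of the 213 LSECs with at least 5 Maf UMIs, 13 were in cluster 8 of the main clustering. The 5 with 3 or more stellate cell genes held 0 Ackr3 UMIs. The split was not recomputed without cluster 8. Among the chemokines, Cxcl16 was at 263 CPM with 0, 276 CPM with at least 2 and 291 CPM with at least 5 Maf UMIs. Cxcl9 was higher in the cells with Maf UMIs, at 537, 585 and 716 CPM (681 to 752) in the same order, against 498 CPM in control LSECs. Cxcl10 was lower in the cells with Maf UMIs, at 354 CPM with 0, 304 CPM with at least 2 and 216 CPM with at least 5, against 211 CPM in control LSECs. Of the 489 Cxcl10 UMIs of the cells with at least 5 Maf UMIs, 153 were in 5 cells with 3 or more stellate cell genes, and the other 208 cells stood at 159 CPM (142 to 177).

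**Figure D3:**
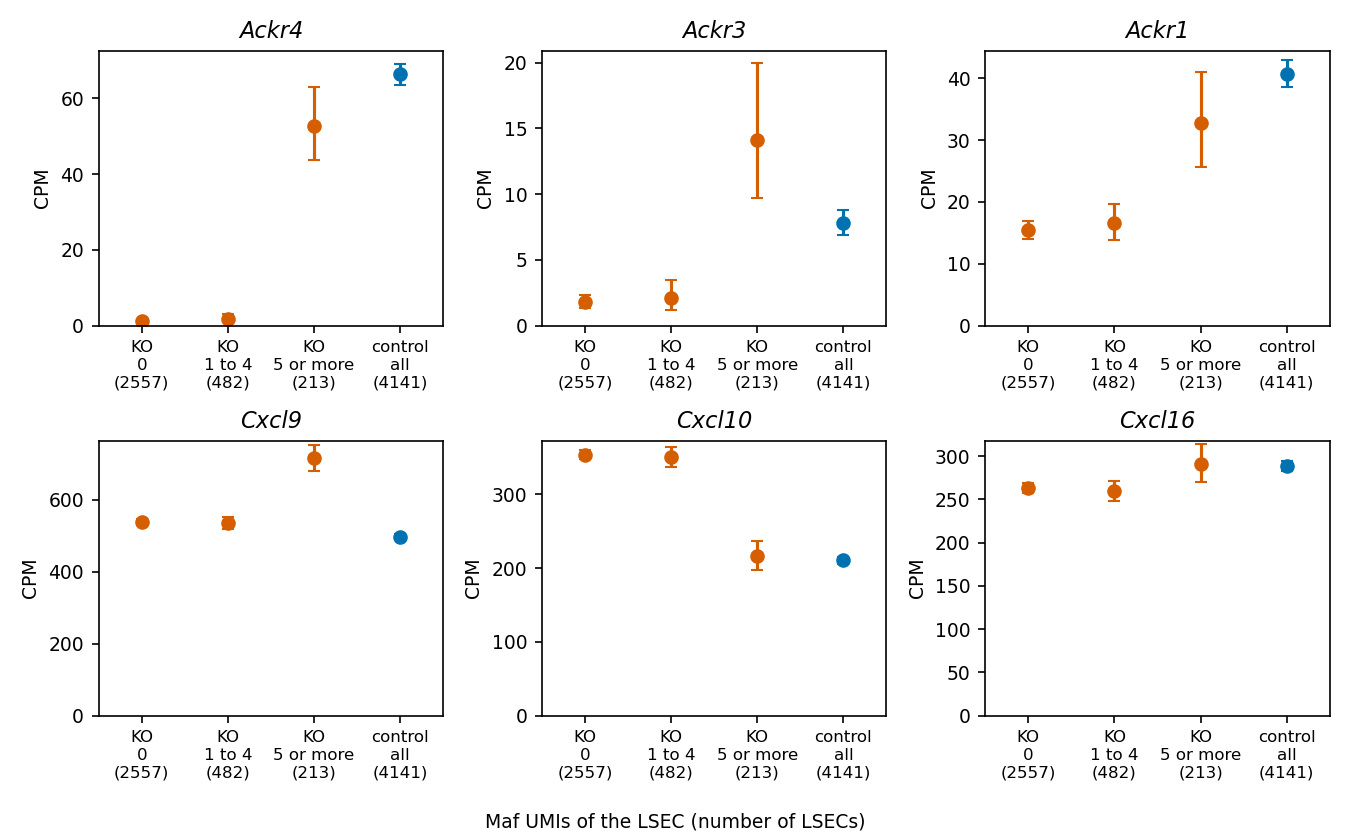
Level of 6 genes in Maf LSEC-KO LSECs (orange) by the number of Maf UMIs of the cell and in all control LSECs (blue), in CPM with 95% Poisson intervals. Ackr4, Ackr3 and Ackr1 are lowest in cells with 0 or 1 to 4 Maf UMIs and reach 52.6, 14.1 and 32.7 CPM in the 213 cells with at least 5, of which 13 are of cluster 8.

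Cxcl9 and Cxcl10, the interferon-induced ligands of CXCR3 that recruit activated T and NK cells, were found in both libraries in LSECs and in myeloid cells. Cxcl9 (ENSMUSG00000029417, chr5:92321347-92328079, minus strand) reached 498 CPM (490.2 to 505) in the control library (16529 UMIs) against 547 CPM (539.8 to 554) in Maf LSEC-KO (21985 UMIs). The log2 ratio was 0.14 (0.11 to 0.17), close to the median of all genes, and it was −0.05 when UMIs of all genes set the scale, so no direction is given. Cxcl10 (ENSMUSG00000034855, chr5:92346638-92348889, minus strand) reached 211 CPM (205.6 to 216) in the control library (6992 UMIs) against 346 CPM (339.8 to 351) in Maf LSEC-KO (13887 UMIs). It was higher in the Maf LSEC-KO library, at a log2 ratio of 0.71 (0.67 to 0.76), and 17.9% of all genes tested had a ratio this high or higher. Within 4 bins of the summed level of 15 immediate early genes, from lowest to highest, it was −0.37 (−0.54 to −0.20), 0.11, 0.43 and 0.38, so the direction turned in the lowest bin and each value was below 0.71. Art3, on the opposite strand across Cxcl10, stood at 42.5 CPM in control and 59.6 CPM in Maf LSEC-KO LSECs.

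Both genes were unevenly spread over LSECs. A Cxcl9 UMI was found in 54.8% of control and 72.05% of Maf LSEC-KO LSECs, or 40.4% and 43.5% at 2700 UMIs per cell, against 17.2% and 13.3% of T and NK cell-like and 34.0% and 12.8% of B cell-like cells. A Cxcl10 UMI was found in 28.3% and 50.9% of LSECs, or 17.4% and 27.7% at 2700 UMIs per cell, against 6.90% and 15.0% of T and NK cell-like and 21.3% and 10.3% of B cell-like cells at their own depth. Yet 1 cell held up to 347 Cxcl9 UMIs among control LSECs and 468 among those of Maf LSEC-KO, and for Cxcl10 up to 282 and 308. The 10% of LSECs with the most held 83.1% of the control and 67.2% of the Maf LSEC-KO Cxcl10 UMIs. In the control library cluster 2, with 20.4% of the cells, held 62.1% of the Cxcl9 and 68.6% of the Cxcl10 UMIs, and in the Maf LSEC-KO library cluster 2, with 23.1% of the cells, held 47.9% and 46.0%. Chemokine genes had been kept out of the genes that defined the clusters.

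LSECs with more Cxcl10 UMIs also held more RNA of Cxcl9 and of interferon response genes. With cells thinned to 2700 UMIs, control LSECs with 0, 1 to 2, and 3 or more Cxcl10 UMIs had Cxcl9 at 323, 780 and 1896 CPM. In Maf LSEC-KO LSECs the values were 393, 568 and 1349 CPM. The summed level of 25 interferon response genes was 2280, 3641 and 7231 CPM in control and 3746, 4866 and 9338 CPM in Maf LSEC-KO, in the same order. Cxcl9 and Cxcl10 UMIs were found in the same cell in 417 of 3729 thinned control LSECs, where independent detection would give 262, and in 453 of 3065 Maf LSEC-KO LSECs, where it would give 369. Cxcl9 decreased along the lobule in control LSECs, from 604 CPM in the least to 337 CPM in the most pericentral bin. In Maf LSEC-KO LSECs the most pericentral bin was the highest, at 646 CPM against 494 to 550 CPM in the others.

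Promoters of 7 of the 10 genes (not Cxcl16, Ccl2 and Ccl5), the 250 bases before the RefSeq transcription start (GRCm38.p6), were searched on both strands for an interferon-stimulated response element (GAAA, any 2 bases, GAAA), a gamma-activated site (TTCNNNGAA), an NF-kB site (GGGA, any 2 bases, TTCC) and a Maf half-site (TGCTGAC). These letters occur in 2.98%, 7.02%, 1.21% and 3.81% of 32851 promoters of the same length. Printed here are the promoters that held a match (Cxcl10, Cxcl1 and Ackr3) and that of Cxcl9. Of the receptors only Ackr3 is printed. Matches are in capitals, and a match is a description of the letters, not a bound site. Cxcl10 (chr5:92348890-92349139, minus strand) held 1 interferon-stimulated response element 213 bases and 1 NF-kB match 159 bases before the start, Cxcl1 (chr5:90890995-90891244, plus strand) held 2 overlapping NF-kB matches 71 and 70 bases before it, Ackr3 (chr1:90203730-90203979, plus strand) held 1 Maf half-site 228 bases before it, and Cxcl9 (chr5:92328080-92328329, minus strand) held no match. Ackr4, Ackr1 and Cxcl12 held none either.
Cxcl10: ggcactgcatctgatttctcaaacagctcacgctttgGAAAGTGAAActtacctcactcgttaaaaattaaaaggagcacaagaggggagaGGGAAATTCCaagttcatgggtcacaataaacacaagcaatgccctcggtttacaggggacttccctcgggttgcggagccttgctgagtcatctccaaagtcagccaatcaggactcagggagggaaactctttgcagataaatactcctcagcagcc
Cxcl9: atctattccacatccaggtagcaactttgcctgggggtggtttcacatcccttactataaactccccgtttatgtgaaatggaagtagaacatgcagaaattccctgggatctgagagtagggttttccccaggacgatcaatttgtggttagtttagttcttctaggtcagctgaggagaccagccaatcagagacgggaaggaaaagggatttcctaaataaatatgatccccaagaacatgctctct
Cxcl1: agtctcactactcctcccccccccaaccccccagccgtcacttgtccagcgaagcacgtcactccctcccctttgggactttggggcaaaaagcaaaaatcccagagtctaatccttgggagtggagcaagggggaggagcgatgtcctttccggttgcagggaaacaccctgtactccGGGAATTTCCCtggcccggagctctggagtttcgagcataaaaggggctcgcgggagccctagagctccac
Ackr3: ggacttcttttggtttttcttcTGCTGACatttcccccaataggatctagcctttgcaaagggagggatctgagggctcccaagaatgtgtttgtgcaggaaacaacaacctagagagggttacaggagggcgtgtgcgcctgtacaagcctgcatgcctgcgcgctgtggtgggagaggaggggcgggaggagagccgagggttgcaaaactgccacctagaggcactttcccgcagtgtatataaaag

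Cxcl16 (ENSMUSG00000018920, chr11:70453983-70459984, minus strand), a membrane-bound ligand of CXCR6 that holds NKT and T cells in the sinusoids, differed little. It reached 288 CPM (283 to 294) in the control library (9580 UMIs) against 264 CPM (259 to 269) in Maf LSEC-KO (10599 UMIs). The control level was slightly higher, at a log2 ratio of −0.13 (−0.17 to −0.09). Cxcl16 was found in most LSECs: 75.6% of control and 81.2% of Maf LSEC-KO LSECs had a UMI, against 13.8% and 11.7% of T and NK cell-like and 34.0% and 12.8% of B cell-like cells, and no LSEC had more than 27. Its level lay between 203 and 332 CPM in LSECs, Vwf-positive endothelial cells, macrophage-like cells at the finer clustering, dendritic cell-like, hepatocyte-like and cholangiocyte-like cells. The hepatocyte-like cells, found in control only, held much LSEC RNA, as given below. Zmynd15, on the opposite strand across Cxcl16, stood at 94.1 and 80.4 CPM.

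Cxcl12 (ENSMUSG00000061353, chr6:117168535-117181367, plus strand), the ligand of CXCR4 and ACKR3, was found in few LSECs. It reached 15.5 CPM (14.2 to 16.9) in the control library (514 UMIs) against 20.3 CPM (18.9 to 21.7) in Maf LSEC-KO (815 UMIs), which is 0.39 (0.23 to 0.55) as a log2 ratio. A UMI was present in 1.93% of control and 3.08% of Maf LSEC-KO LSECs, against 0 of 29 and 0 of 60 T and NK cell-like cells, and 5 cells held 65.6% and 50.2% of the UMIs. LSECs with UMIs of at least 3 of 10 stellate cell genes held 86.4% of the control and 58.2% of the Maf LSEC-KO UMIs, and the LSECs left after removing cells with at least 3 stellate, macrophage or T and NK cell genes stood at 2.14 CPM in control and 9.52 CPM in Maf LSEC-KO. Cluster 8, which joins endothelial and stellate-like cells, held 91.0% of the Maf LSEC-KO UMIs. The ratio thus ranged from −3.06 without that cluster, with the stellate-like cells of the control library kept, over −0.17 without Maf LSEC-KO cells with 2 or more Maf UMIs to 2.80 without cells that had 2 genes of another cell type in both libraries, and no direction is given.

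The cells with many Cxcl12 UMIs differed between the libraries. All 11 control LSECs with at least 5 Cxcl12 UMIs had at least 3 stellate cell genes, as did 10 of the 23 in the Maf LSEC-KO library. With Vwf-positive cells counted as well, 11 control and 32 Maf LSEC-KO endothelial-like cells had at least 5 Cxcl12 UMIs. At the finer clustering, Maf LSEC-KO cluster 16, 62 cells led by Sparcl1, Igfbp3 and Col15a1, held 419 Cxcl12 UMIs at 944 CPM, and 0 of its cells had 3 stellate cell genes. Pecam1 was found in all its cells, Ackr3 stood at 83.4 CPM and Maf at 6.76 CPM. Cluster 20, 42 cells led by Dcn and Ccl21a, held Cxcl12 at 813 CPM, and 26 of its cells had 3 stellate cell genes. In the control library the highest level was 276 CPM in cluster 11, 158 cells led by Spp1, Dcn and Rspo3. Cxcl12 was among the 10 leading genes of clusters 16 and 11, so these levels are a description of the clusters.

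Cxcl1, Ccl2 and Ccl5 are inflammatory chemokines that attract neutrophils, monocytes, and T and NK cells, respectively. Cxcl1 (ENSMUSG00000029380, chr5:90891241-90893115, plus strand) reached 2.23 CPM (1.75 to 2.80) in the control library (74 UMIs) against 9.65 CPM (8.72 to 10.7) in Maf LSEC-KO (388 UMIs). It was higher in the Maf LSEC-KO library at a log2 ratio of 2.12 (1.75 to 2.49), and 3.83% of all genes tested had a ratio this high or higher. A UMI was found in 1.40% of control and 7.38% of Maf LSEC-KO LSECs, or 0.51% and 1.89% at 2700 UMIs per cell, against 0 of 29 and 0 of 60 T and NK cell-like and 1 of 47 control B cell-like cells. Those zeros allow shares of up to 10.3% and 5%. Of the 15 immediate early genes, which respond to stimulation and to cell isolation, 11 were 2-fold or more higher in Maf LSEC-KO LSECs and 0 lower, against 11.3% and 4.97% of all genes, and they moved with Cxcl1: within 4 bins of their summed level, from lowest to highest, the log2 ratio of Cxcl1 was −0.41 (−2.85 to 1.43), 1.41, 1.34 and 0.82, each below the 2.12 over all LSECs. What they contribute to the difference was not tested.

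Ccl2 (ENSMUSG00000035385, chr11:82035571-82037453, plus strand) reached 5.36 CPM (4.6 to 6.21) in the control library (178 UMIs) against 9.16 CPM (8.24 to 10.1) in Maf LSEC-KO (368 UMIs). The log2 ratio was 0.77 (0.51 to 1.04), with the higher level in Maf LSEC-KO, but 5 cells held 64.6% of the control and 46.7% of the Maf LSEC-KO UMIs. A UMI was found in 1.33% and 3.26% of LSECs, against 0 of 29 and 0 of 60 T and NK cell-like cells. Within the immediate early bins the ratio was 1.08 (−0.30 to 2.36), −0.21 (−1.26 to 0.75), −0.22 (−0.58 to 0.15) and 1.15 (0.37 to 2.05), so its direction turned in 2 of 4. Ccl2 was highest in the LSECs with the most Cxcl10: at 0, 1 to 2, and 3 or more Cxcl10 UMIs per thinned cell it stood at 0.69, 8.80 and 53.2 CPM in control and at 6.24, 3.70 and 44.3 CPM in Maf LSEC-KO LSECs.

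Ccl5 (ENSMUSG00000035042, chr11:83525778-83530518, minus strand) reached 58.5 CPM (55.9 to 61.2) in the control library (1943 UMIs) against 23.8 CPM (22.4 to 25.4) in Maf LSEC-KO (958 UMIs), which is −1.30 (−1.41 to −1.18) as a log2 ratio. Control LSECs were higher at this clustering, but 26 control LSECs with UMIs of at least 3 T and NK cell genes held 95.1% of the UMIs, at 10827 CPM. Without cells of at least 3 T and NK, stellate or macrophage genes, Ccl5 stood at 2.92 CPM in control and 22.8 CPM in Maf LSEC-KO, which turned the log2 ratio to 2.96. At the finer clustering, where 29 control T and NK cell-like cells, led by Gzma and Nkg7, formed their own cluster, it was 3.07. In the Maf LSEC-KO library 5 LSECs held 66.7% of the Ccl5 UMIs. A Ccl5 UMI was found in 2.17% of control and 4.67% of Maf LSEC-KO LSECs, against 2.13% of 47 control and 7.69% of 39 Maf LSEC-KO B cell-like cells (medians 7540 and 5977 UMIs), so these shares are read as background.

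The source of each gene was read as its level in the other cell classes of the isolates. The Maf LSEC-KO library gave the same levels per class at both clusterings; in the control library the finer one separated T and NK cell-like cells from LSECs and cells with S100a4, Ly6c2 and H2-Ab1 from macrophage-like cells, and its levels are given here. Ccl5 was a gene of T and NK cell-like cells, at 10537 CPM in 29 control and 20785 CPM in 60 Maf LSEC-KO cells, which held 62.7% and 77.4% of its UMIs. Ccl2 stood at 28.1 CPM in control and 39.5 CPM in Maf LSEC-KO macrophage-like cells, at 78.8 CPM in 86 Maf LSEC-KO neutrophil and monocyte-like cells, and at 151 CPM in 37 Maf LSEC-KO cholangiocyte-like cells. The control neutrophil and monocyte-like class joins unlike clusters, cluster 14 (69 cells led by S100a4, Ly6c2 and H2-Ab1), with Ccl2 at 39.5 CPM, and cluster 16 (40 cells led by S100a9 and S100a8), with 1 Ccl2 UMI, so it is given by cluster. Cxcl1 was highest in these cholangiocyte-like cells too, at 68.7 CPM (48.1 to 95.2).

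**Figure D4:**
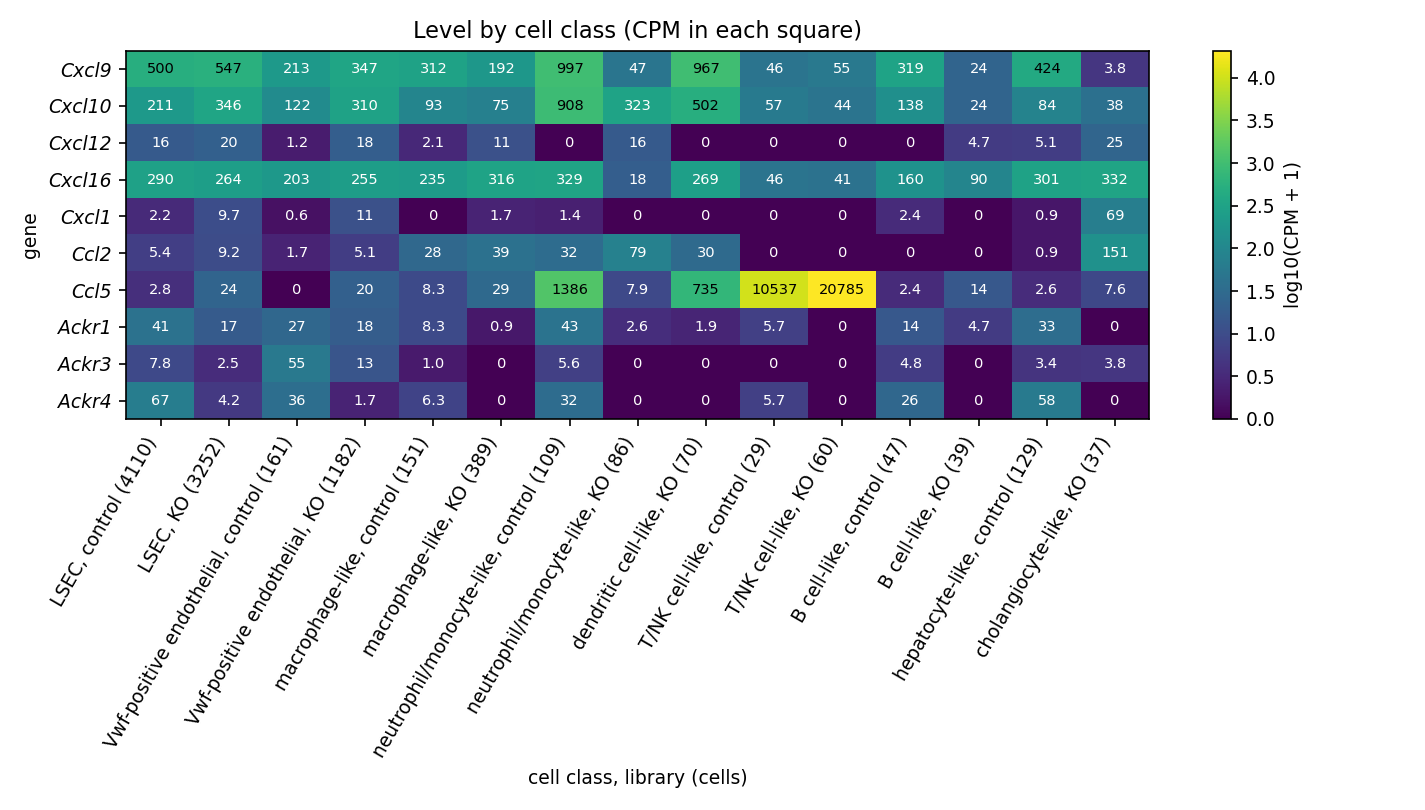
Level of each gene (rows) in each cell class and library (columns, with the number of cells; KO is Maf LSEC-KO) at the finer clustering; numbers are CPM and colour is log10(CPM + 1); the control neutrophil/monocyte-like column joins clusters 14 and 16. Ccl5 is highest in T and NK cell-like cells, Ackr3 in Vwf-positive endothelial cells, and Ackr4 and Ackr1 are at or near 0 in the non-endothelial classes of the Maf LSEC-KO library.

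Cxcl9 and Cxcl10 were present in myeloid cells as well. Cxcl9 stood at 1283 CPM in control cluster 14, at 6.23 CPM from 1 UMI in control cluster 16 and at 967 CPM in 70 Maf LSEC-KO dendritic cell-like cells. Cxcl10 stood at 747, 1464 and 502 CPM in the same order. Control cluster 14 also held endothelial RNA, with Pecam1 in 62.3% of its cells and Cdh5 at 401 CPM. What this RNA adds to its levels was not tested. In macrophage-like cells Cxcl9 stood at 312 CPM in control and 192 CPM in Maf LSEC-KO, and Cxcl10 at 92.8 and 75.1 CPM; among all genes compared in these cells at the main clustering, 5.64% were 2-fold or more higher and 9.32% 2-fold or more lower. In control cluster 14 and the Maf LSEC-KO dendritic cell-like cells both genes exceeded the LSEC level of the library, although LSECs held 89.1% of the control and 75.7% of the Maf LSEC-KO Cxcl9 UMIs and 86.2% and 69.8% of the Cxcl10 UMIs, being the most numerous cells. In Vwf-positive endothelial cells Cxcl10 was 122 CPM in control and 310.3 CPM in Maf LSEC-KO, a log2 ratio of 1.34 (1.15 to 1.55), and Cxcl9 213 and 347 CPM. LSECs held 92.8% of the control and 84.8% of the Maf LSEC-KO Ackr4 UMIs and 91.2% and 68.2% of the Ackr1 UMIs, and were 86.8% and 63.6% of the cells. In Maf LSEC-KO the non-endothelial classes had 0 Ackr4 UMIs and Ackr1 at 4.74 CPM or less. In control, Ackr1 stood at 41.0 CPM in LSECs and at 43.2 CPM in neutrophil and monocyte-like cells, a class that includes cluster 14. Vwf-positive cells had Ackr4 at 35.9 CPM in control and 1.72 CPM in Maf LSEC-KO. RNA of LSECs was also found in other classes of the control library, so low levels there are not read as expression: control B cell-like cells held the LSEC gene Clec4g at 68.8% of the LSEC level, against 23.2% in the Maf LSEC-KO library, and Ackr4 stood at 58.3 CPM in control hepatocyte-like cells. These hepatocyte-like cells had Pecam1 in 84.5% of cells and Maf at 3499 CPM, against 3439 CPM in control LSECs. The class is therefore not read as separate from LSECs.

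Other genes of the chemokine system were read from fixed lists. Of 30 further chemokine ligands in the files, 5 passed the level filter in LSECs, 2 of them 2-fold or more higher and 1 lower (11.3% and 4.97% of all genes). Ccl21a, a ligand of CCR7 and ACKR4 made by lymphatic endothelium, had 1 UMI among control LSECs but 1500 among those of Maf LSEC-KO, 37.3 CPM, and 1477 of these were in cluster 8, whose leading genes are largely stellate and lymphatic. Ppbp, a platelet chemokine, was at 0.63 and 4.45 CPM, and Pf4, another of these, at 11.3 and 17.4 CPM. Ccl4 was at 7.56 and 0.87 CPM, and Ccl25, a second ligand of ACKR4, at 19.6 and 21.2 CPM. Of 21 further receptors 5 passed: Cxcr4, the receptor of CXCL12, was at 1.11 CPM in control and 12.3 CPM in Maf LSEC-KO LSECs, Cx3cr1 at 2.02 and 7.56 CPM, the scavenger Ackr2 at 49.5 and 56.4 CPM, Ccrl2 at 21.7 and 30.3 CPM, and Gpr182, an atypical receptor of LSECs that binds CXCL9, CXCL10 and CXCL12, at 1990 and 719 CPM. Gpr182 had a log2 ratio of −1.47. By Maf UMIs of the Maf LSEC-KO cells it stood at 663 CPM with 0 and 1593 CPM with at least 5 Maf UMIs.

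Of 10 chemokine-processing genes 6 passed the filter, 1 of them 2-fold or more higher and 1 lower, with a median log2 ratio of 0.18 against 0.13 over all genes. Dpp4, the protease that trims CXCL9, CXCL10 and CXCL12, stood at 827 CPM in control and 84.6 CPM in Maf LSEC-KO LSECs (log2 ratio −3.29). Within the Maf LSEC-KO library it was 59.8 CPM with 0 and 450.1 CPM with at least 5 Maf UMIs. Sulf2, which edits heparan sulfate, was at 0.99 and 4.16 CPM, the heparan sulfate enzymes Ndst1 and Ext1 at 144 and 106 CPM and at 26.7 and 31.2 CPM, and Adam10 and Adam17, which shed CXCL16, at 219.8 and 245 CPM and at 73.8 and 84.8 CPM. Of 25 interferon response genes 6 were 2-fold or more higher and 0 lower, against 11.3% and 4.97% of all genes, with a median log2 ratio of 0.59 against 0.13, from −0.08 for Gbp4 and −0.07 for Ifit2 to 1.40 for Irf7 and 1.71 for Isg15. Of 9 NF-kB response genes tested 3 were higher and 0 lower, against the same shares and with a median of 0.45, from −0.10 for Nfkb1 and −0.03 for Birc3 to 1.18 for Vcam1 and 1.21 for Nfkbiz. The 15 immediate early genes ran from 0.34 for Klf4 and Klf6 to 2.34 for Nr4a1 and 2.79 for Atf3.

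Genes with a pattern like that of each member were found by Pearson correlation of log2(CPM + 1) over 14 cell classes of both libraries among 7501 genes, as a description: the classes share libraries and depth. For Ackr4 they were Col13a1 (r = 0.99), Tpbgl (0.98) and Tmem132e (0.94), for Ackr1 Pla2r1 (0.95), Lyve1 (0.95) and Tmcc2 (0.94), and for Ackr3 Il1r1 (0.90) and Btbd7 (0.88). For Cxcl10 they were the interferon genes Ifit3b (0.86) and Gbp2 (0.84) with Dna2 (0.85), and for Cxcl9 Zfp366 (0.92) and Pitpna (0.90). The pattern of Ccl5 was most like that of the lymphocyte genes Cd7 (0.94), Il7r (0.94) and Sla2 (0.93). For Cxcl12 the values were lower, with Sgo2a (0.76), Dcn (0.75) and Abcc9 (0.74). Cxcl16 was most like Akr1a1 (0.96) and Spred1 (0.95), Cxcl1 like Efemp1 (0.98), B9d1 (0.90) and Sema3c (0.89), and Ccl2 like Creb5 (0.85), C3 (0.85) and Basp1 (0.82).

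**Figure D5:**
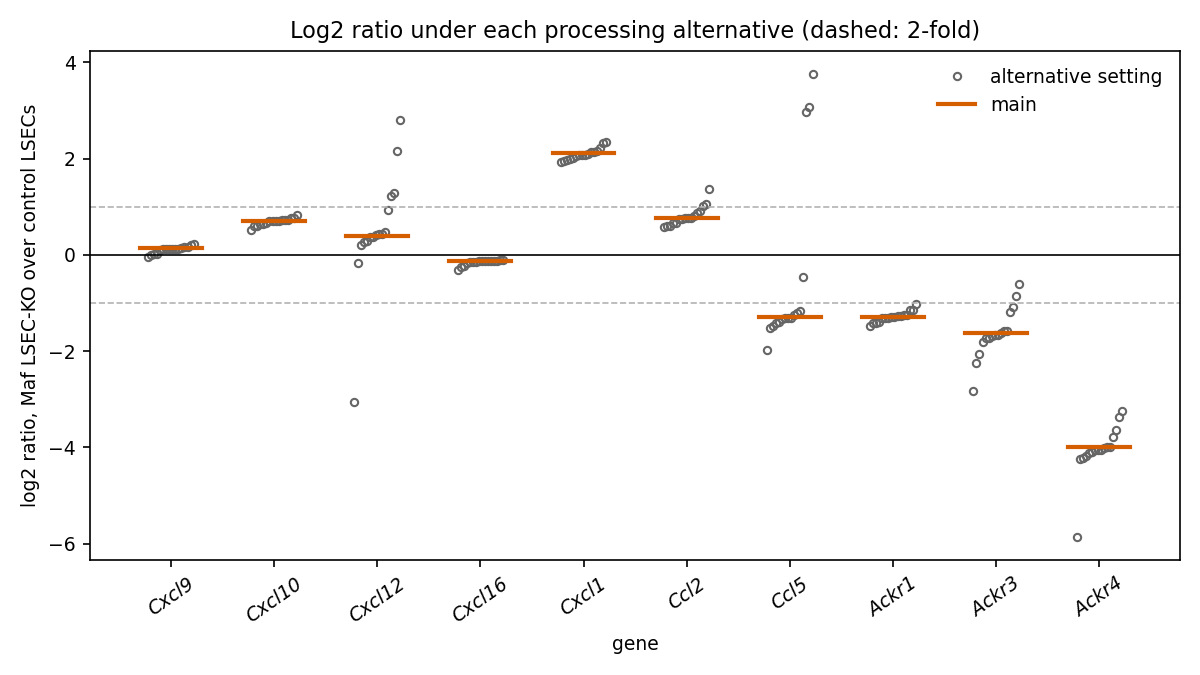
Log2 ratio of each gene, Maf LSEC-KO over control LSECs, as reported (orange line) and under each of 16 alternative settings (grey circles), with dashed lines at 2-fold. Ackr4 lies between −5.85 and −3.25 and Cxcl1 between 1.93 and 2.34 in every setting run, while Ccl5 has 3 settings above 0 and Cxcl12 spans −3.06 to 2.80.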

How the data were processed

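The authors deposited raw counts (UMIs per gene and barcode, not normalised, 32285 genes) of 10x 3′ libraries, made with Cell Ranger 6.0.2 on mm10; the submitters' notes also name Seurat 5.0.1. A subtraction of mean empty-droplet counts described in the study's methods is not part of these counts. All barcodes had at least 500 UMIs.

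Barcodes under 1500 UMIs or 750 genes were left out (703 control, 1668 Maf LSEC-KO). Each library was clustered alone in Seurat 5.3.0 (R 4.3.3; 2000 variable genes without chemokine genes; resolution 0.3, and 1 as the finer clustering). Barcodes with the highest Scrublet scores (scanpy 1.11.5) were removed at 0.8% per 1000 barcodes, 225 control and 308 Maf LSEC-KO, since the automatic limit marked 0. Clusters were named from marker lists. UMIs were summed per class and given as CPM with exact Poisson intervals, ratios with exact conditional binomial and shares with Clopper-Pearson intervals, all at 95%. Genes tested had a mean of at least 2.5 CPM over the 2 LSEC sums, and 2-fold was the limit for a call. A count of 0 is given with the limit that 3 counts allow. Alternative scales were all-gene UMIs, TMM (edgeR 4.0.16) and DESeq2 1.42.0 size factors.

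Named beside the 10 genes were further chemokine ligands, receptors and processing genes of at least 2.5 CPM in LSECs or 50 CPM in a class, the 2 highest and 2 lowest ratios of each response list, and the 3 genes most like each member; a few genes this rule names are not reported here. The genes and lists were chosen with earlier results of these data known. Scripts were tested on simulated data.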

Additional observations from a re-analysis of the deposited data

Results flagged for a closer look

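Cxcl9 and Cxcl10 had ratios of opposite sign in LSECs and in macrophage-like cells at the main clustering and scale; for Cxcl9 in LSECs the ratio was −0.05 with UMIs of all genes as the scale. Cxcl9 had a log2 ratio of Maf LSEC-KO over control of 0.14 in LSECs and −1.80 (−1.96 to −1.64) in macrophage-like cells, where it stood at 668 CPM in 219 control and 192 CPM in 389 Maf LSEC-KO cells, a difference between the classes of 1.93. Cxcl10 had 0.71 in LSECs and −2.15 (−2.41 to −1.90) in macrophage-like cells, at 334 and 75.1 CPM, a difference of 2.87. Each class is 1 library per group, so the difference was not tested. Of the 11497 genes compared in macrophage-like cells, 5.64% were 2-fold or more higher and 9.32% 2-fold or more lower. At the finer clustering, cells with S100a4, Ly6c2 and H2-Ab1 left the control class and 151 cells remained. The macrophage ratios were then −0.70 (−0.91 to −0.48) for Cxcl9 and −0.31 (−0.68 to 0.08) for Cxcl10. The size of the difference thus changed with which cells the control class holds. Control macrophage-like cells of the main clustering also held Clec4g at 31.3% of the LSEC level, against 13.4% in Maf LSEC-KO. Ptprb and Kdr stood at 27.6% and 28.4% of the LSEC level in control, against 14.3% and 11.1% in Maf LSEC-KO. Stab2 went the other way, reaching 55.2% in Maf LSEC-KO. What RNA of LSECs adds to the macrophage ratios was not tested.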

How the results depend on the processing

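No paired analysis was possible because each group is 1 library. Ccl5 reversed to a log2 ratio of 3.76 without cells holding 2 genes of another cell type, to 3.07 at the finer clustering and to 2.96 without cells holding 3 T and NK, stellate or macrophage genes (the last chosen after seeing the data). The count of genes of the 10 past 2-fold higher was 1 as reported, 2 with the mean over cells (Cxcl12, Cxcl1), 4 without cells holding 2 genes of another type (Cxcl12, Cxcl1, Ccl2, Ccl5), 3 with thinning (Cxcl12, Cxcl1, Ccl2), 2 at the finer clustering (Cxcl1, Ccl5), 3 without cells holding 3 such genes (Cxcl12, Cxcl1, Ccl5) and 2 without the 5 highest LSECs of each library (Cxcl1, Ccl2). Over all genes, 4653 (22.2%) were past 2-fold higher and 3118 (14.9%) lower with no filter on level, and 261 (6.44%) and 199 (4.91%) at a mean of at least 50 CPM, against 1260 and 555 as reported. Cxcl10 ranged from 0.53 to 0.83, Ccl2 from 0.58 to 1.36, Ackr1 from −1.48 to −1.02, Ackr3 from −2.84 to −0.60 and Cxcl12 from −3.06 to 2.80. Of the recomputed ratios of the 10 genes, 106 moved by less than their counting interval, 51 by more, and 3 reversed. The cause of these changes was not tested. Leaving out Maf LSEC-KO cluster 8, Maf LSEC-KO cells with 2 or more Maf UMIs, or proliferating cells was chosen after seeing the data.

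Within the Maf LSEC-KO library, Cxcl12 was higher in LSECs with at least 2 than with 0 Maf UMIs (73.4 and 12.6 CPM), but lower without cells holding 3 stellate genes (3.33 and 10.6 CPM). Depth limits the sparse genes: Ackr3 had 102 and Cxcl1 74 UMIs in LSECs of the library where each was lower.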

Other observations

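Further chemokine genes reached 50 CPM outside endothelial cells. In neutrophil and monocyte-like cells (40 control, 86 Maf LSEC-KO) Cxcl2, a ligand of CXCR2, stood at 5964 and 4147 CPM, its receptor Cxcr2 at 1670.0 and 1656 CPM, Ccl6 at 1346 and 1540.0 CPM, Ccl3 at 1901 and 1141 CPM, Ccl4 at 2250 and 757 CPM, Ccr1 at 1421 and 1275 CPM, Cxcr4 at 960 and 920 CPM and Ccrl2 at 1340 and 767 CPM. Macrophage-like cells held Ccl24 at 202 CPM in control and 212 CPM in Maf LSEC-KO, Cxcl13, which attracts B cells, at 149 and 182 CPM, Ccl6 at 389 and 393 CPM and Pf4 at 50.4 and 204 CPM, and Ccl8 reached 108 CPM in Maf LSEC-KO.

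Receptors of the ligands described above were found in Maf LSEC-KO T and NK cell-like cells (60 cells), with Cxcr3, the receptor of CXCL9 and CXCL10, at 75.1 CPM and Cxcr6, the receptor of CXCL16, at 232 CPM, beside Xcl1 at 949 CPM. Dendritic cell-like cells of the same library (70 cells) held Ccr2 at 393 CPM, Cx3cr1 at 263 CPM, Ccl17 at 131 CPM, Ccl22 at 124 CPM, Ccl9 at 100 CPM, Xcr1 at 79.6 CPM and Ccr9 at 61.1 CPM. B cell-like cells held Ccr7 at 90.5 CPM in control and 152 CPM in Maf LSEC-KO, and Cxcr5 at 94.8 CPM in Maf LSEC-KO. These classes are small and each is 1 library, so the values are given without a comparison.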
